A study of Mus musculus with 13 samples.

Results

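The genes described here are the 3 ID genes Id1, Id2 and Id3 and the 3 E protein genes Tcf3, Tcf4 and Tcf12. They were chosen by name, as the members of these families with a symbol given in advance, and make up 6 of the 35906 genes in the deposited tables. RNA was sequenced from mature 2 (M2) CD4 single-positive (CD4SP) thymocytes, the CD69-MHCI+ cells that have completed selection in the thymus. All mice were C57BL/6J, lacked Rag1 (Rag1-/-) and carried the Lm54 T cell receptor (TCR) transgene, so that the T cells of every mouse bore 1 receptor, specific for listeriolysin O (LLO) from Listeria presented by I-Ab. In CtslΔTEC mice a conditional Ctsl allele was deleted by Foxn1-cre, a recombinase active in thymic epithelial cells (TECs), and the control mice were labeled Ctsl fl/fl (WT). The thymocytes themselves therefore kept their Ctsl gene in both genotypes, and what differed was the epithelium in which they were selected. Ctsl encodes cathepsin L, a lysosomal protease that shapes the peptides displayed on MHC class II molecules by cortical TECs.

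Cells were taken directly from 5 CtslΔTEC mice (mice 1 to 5) and 4 control mice (mice 1 to 4), hereafter unstimulated. Cells from 2 further CtslΔTEC mice (mice 6 and 7) and 2 further control mice (mice 5 and 6) were cultured for 4 h with plate-bound LLO:I-Ab monomer at 1 µg/ml and soluble anti-CD28 at 250 ng/ml, hereafter stimulated. Every library came from 1 mouse. The names of the deposited tables carried 3 dates. CtslΔTEC mice 1 and 3 and control mouse 4 had the first date, the other 6 unstimulated mice the second, and all 4 stimulated mice the third, so that stimulation, culture and date cannot be told apart.

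ID proteins contain a helix-loop-helix domain, which lets them dimerize, but lack the basic region with which related factors contact DNA. E proteins have both parts: Tcf3 encodes the E2A proteins E12 and E47, Tcf12 encodes HEB and Tcf4 encodes E2-2, and their dimers bind E-box sequences in regulatory DNA. An ID protein that pairs with an E protein keeps it off DNA, so the balance between the families sets E protein activity. In the thymus, E2A and HEB hold double-positive (DP) thymocytes at the stage before selection, and signals from the TCR raise Id3 through ERK and EGR transcription factors.

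The gene that shows how an E protein is built most plainly is Tcf3, whose DNA-binding part is encoded in alternative forms. Tcf3 (ENSMUSG00000020167) lies on the minus strand of chromosome 10 at 80409514 to 80433647 (GRCm38, GENCODE M21) and has 14 annotated transcripts. A pair of mutually alternative coding exons holds the basic region and helix-loop-helix, and the choice between them separates the products called E12 and E47. The sequences are shown because the shares of transcripts with either exon are compared further on. The upstream exon spans chr10:80412827-80413062 and is carried by 4 coding transcripts, and the downstream exon spans chr10:80410398-80410624 and is carried by 7. Both are printed 5′ to 3′ on the coding strand, and capitals mark bases that differ from, or have no partner in, the other exon in a global alignment.
Tcf3 upstream exon: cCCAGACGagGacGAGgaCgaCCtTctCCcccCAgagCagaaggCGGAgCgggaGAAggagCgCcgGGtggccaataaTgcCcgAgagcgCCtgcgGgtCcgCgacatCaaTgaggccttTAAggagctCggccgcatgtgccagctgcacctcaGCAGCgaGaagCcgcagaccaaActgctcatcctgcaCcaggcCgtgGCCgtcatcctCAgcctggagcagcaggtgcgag
Tcf3 downstream exon: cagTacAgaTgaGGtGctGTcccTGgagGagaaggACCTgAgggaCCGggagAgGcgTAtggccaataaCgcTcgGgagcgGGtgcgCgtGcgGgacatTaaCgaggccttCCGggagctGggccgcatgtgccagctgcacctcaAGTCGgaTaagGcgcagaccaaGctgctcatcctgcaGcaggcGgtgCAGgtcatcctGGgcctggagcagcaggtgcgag
The exons were 236 and 227 bases long and had 175 identical bases over 236 alignment columns (74.2%).

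The libraries held 25692380 to 39127833 estimated counts in the 9 unstimulated and 8085463 to 27184520 in the 4 stimulated samples. Markers of mature CD4SP cells were present in every library (9 of 9 genes), and their summed level was 5340 to 5720 counts-per-million (CPM) in unstimulated CtslΔTEC and 6140 to 6640 CPM in unstimulated control libraries. Summed DP thymocyte markers reached 284 to 366 CPM in unstimulated CtslΔTEC against 96.3 to 128 CPM in control libraries, and summed natural killer (NK) cell markers 1.98 to 2.72 against 5.02 to 6.03 CPM. In bulk samples such as these, fewer cells of a type and less RNA per cell cannot be told apart. Ctsl itself does not check the genotype here, because the deletion is in the epithelium: the thymocytes held 13.7 ± 2.45 CPM (SD, n = 5) in CtslΔTEC and 7.57 ± 1.41 CPM (SD, n = 4) in control libraries. The Y-linked gene Ddx3y was high in all 5 unstimulated CtslΔTEC libraries but in 1 of 4 control libraries (mouse 3), and in 1 of 2 stimulated libraries of each genotype. Genotype and sex were thus unequally mixed among unstimulated mice.

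Id3 was the most abundant of the 6 genes in the unstimulated cells and Id1 was close to the lowest. Per transcript length, Id3 measured 160.6 to 196 transcripts-per-million (TPM) in CtslΔTEC and 149.7 to 238.4 TPM in control libraries. Tcf3 followed at 80.84 to 122.1 and 76.97 to 105.3 TPM, then Tcf12 at 61.74 to 71.57 and 58.05 to 67.42 TPM. Each of these 3 genes lay wholly above the next in this order. Id2 (7.73 to 27.22 and 6.577 to 19.34 TPM) was far below Tcf12 but wholly above Tcf4 (2.272 to 2.791 and 2.144 to 3.397 TPM), whereas Tcf4 and Id1 (1.272 to 2.431 and 1.163 to 2.143 TPM) overlapped and cannot be ordered. The fourth ID gene of the mouse, Id4, was listed at 0 counts in all 13 libraries.

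**Figure D1:**
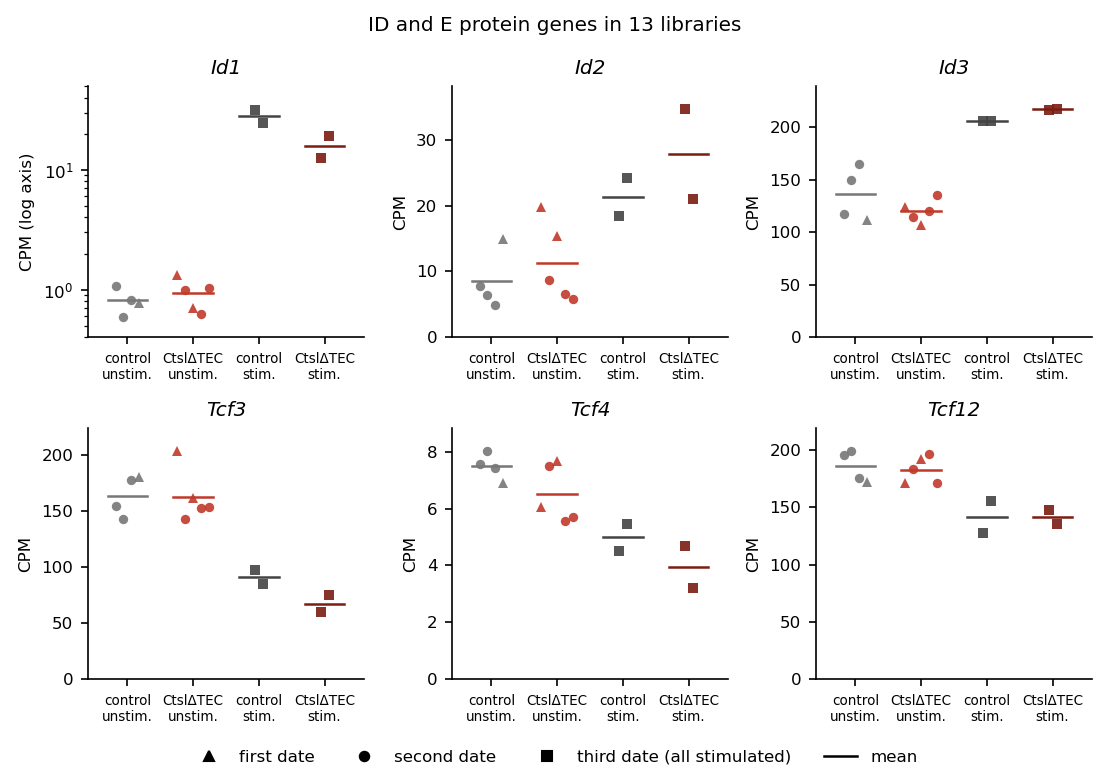
Counts-per-million (CPM) of Id1, Id2, Id3, Tcf3, Tcf4 and Tcf12 in each of the 13 libraries, by group; marker shape gives the date and the line the group mean, the axes start at 0 except for Id1, which has a log axis. The ID genes were higher and the E protein genes lower in stimulated cells, and the unstimulated genotypes overlapped for every gene.

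The first comparison asked whether selection in an epithelium without cathepsin L changed these genes in M2 thymocytes at rest. None of the 6 genes passed the test. It was edgeR's quasi-likelihood test over 13152 genes with Benjamini-Hochberg adjustment, with a gene called at an adjusted p under 0.1. This called 0 of 6 members, whereas 14.8% of all genes tested were called (6.42% higher and 8.36% lower in CtslΔTEC cells), and 0 of 6 had an unadjusted p under 0.05 in edgeR. DESeq2 also called 0 of 6. For none of the 6 did the genotypes separate without overlap, which 13.9% of all genes did.

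Id3 (ENSMUSG00000007872, chromosome 4, 136143497 to 136145755, plus strand), the ID gene that TCR signals induce in thymocytes, measured 123.9, 114.9, 106.5, 120.4 and 135.2 CPM in CtslΔTEC mice 1 to 5. In control mice 1 to 4 it measured 117.6, 150, 164.9 and 112.1 CPM. Control mice 2 and 3 were the highest, but mice 1 and 4 lay within the CtslΔTEC range. The log2 fold change (CtslΔTEC over control) was -0.18 ± 0.11 (SE; 95% interval -0.40 to 0.05; edgeR adjusted p = 0.394).

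Id2 (ENSMUSG00000020644, chromosome 12, 25093799 to 25097140, minus strand), which is best known for its part in NK and innate lymphoid cell development, varied most between mice. It measured 19.75, 8.736, 15.45, 6.595 and 5.86 CPM in CtslΔTEC mice 1 to 5 and 7.828, 6.45, 4.945 and 14.97 CPM in control mice 1 to 4. The 3 highest values belonged to the 3 libraries with the first date, in both genotypes. The log2 fold change between genotypes was 0.39 ± 0.40 (95% interval -0.39 to 1.18; edgeR adjusted p = 0.613), so that even a 2-fold difference could not be told from the spread.

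Id1 (ENSMUSG00000042745, chromosome 2, 152736251 to 152737410, plus strand), a target of BMP signals through SMAD proteins in many cell types, was barely expressed at rest. It measured 1.315, 0.9901, 0.7074, 0.6295 and 1.022 CPM in CtslΔTEC and 1.073, 0.5959, 0.8179 and 0.7774 CPM in control mice, from 19 to 52 and 17 to 37 counts per library. At this depth the interval was wide (log2 fold change 0.20 ± 0.27; 95% interval -0.33 to 0.73; edgeR adjusted p = 0.723).

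Among the E protein genes, Tcf3 measured 204.1, 143, 161.7, 152.7 and 153.7 CPM in CtslΔTEC and 154.4, 143.1, 178.4 and 180.6 CPM in control mice. CtslΔTEC mouse 1 was the highest and CtslΔTEC mouse 2 the lowest of all 9. The log2 fold change was -0.01 ± 0.11 (95% interval -0.22 to 0.21; edgeR adjusted p = 0.983). Tcf12 (ENSMUSG00000032228, chromosome 9, 71842688 to 72111871, minus strand), the HEB gene, was the steadiest of the 6. It measured 171.5, 183, 192.3, 196.5 and 171.3 CPM in CtslΔTEC and 195.4, 199.2, 175.6 and 172.1 CPM in control mice, with a log2 fold change of -0.02 ± 0.07 (95% interval -0.16 to 0.12; edgeR adjusted p = 0.914). Tcf4 (ENSMUSG00000053477, chromosome 18, 69343356 to 69689079, plus strand), whose product directs plasmacytoid dendritic cell development, was low throughout. Its levels were 6.044, 7.513, 7.669, 5.546 and 5.711 CPM in CtslΔTEC and 7.567, 8.028, 7.435 and 6.886 CPM in control mice (log2 fold change -0.20 ± 0.13; 95% interval -0.45 to 0.05; edgeR adjusted p = 0.378). The controls were among the higher values, but CtslΔTEC mice 2 and 3 lay within their range.

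Because the 3 highest Id2 values shared a date, the date was read out as a term beside genotype in the unstimulated fit, an analysis chosen after seeing these values. The result is a description with no test, because the same values prompted it. The log2 difference of Id2 between the second and the first date was -1.29 ± 0.16, with 14.97 to 19.75 CPM in the 3 libraries of the first date and 4.945 to 8.736 CPM in the 6 of the second. For Tcf3 it was -0.25 ± 0.09 and for Id3 0.19 ± 0.11. Immediate-early response genes, chosen after their values were seen, also stood higher at the first date: Jun lay at 406 to 696 CPM against 2.04 to 44.8 CPM at the second, Dusp1 at 129 to 270 against 15.9 to 37.8 CPM, and Junb at 581 to 1010 against 67.6 to 142 CPM. The summed NK markers of the CtslΔTEC mice overlapped between the dates (2.15 and 2.31 CPM against 1.98 to 2.72 CPM). Summed erythroid markers did not overlap, at 60.81 to 115.8 CPM in the 3 libraries of the first date and 28.21 to 55.31 CPM in the 6 of the second. The parts of handling and of other cells in the level of Id2 were not tested. Within the second date alone, the genotype difference of Id2 was 0.14 (edgeR adjusted p = 0.733).

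The second comparison asked how the genes differed between stimulated and unstimulated cells. What is called stimulation below takes in antigen, anti-CD28, 4 h of culture and the date together. All 6 changed in both genotypes: the 3 ID genes rose and the 3 E protein genes fell. Among all 14241 genes tested in the model of the 4 groups, 67.7% were called in control and 71.2% in CtslΔTEC cells, so that a call as such did not set these genes apart. In each genotype 32.9% of all genes were called higher, and 34.8% (control) and 38.2% (CtslΔTEC) lower. The groups did not overlap for any member in either genotype, as for 69.4% of all genes in control and 72.1% in CtslΔTEC cells.

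Id1 made by far the largest change. Stimulated control mice 5 and 6 measured 31.64 and 24.58 CPM and stimulated CtslΔTEC mice 6 and 7 measured 12.55 and 18.97 CPM, against at most 1.315 CPM in any unstimulated library. The log2 fold change was 5.08 ± 0.27 in control (33.9-fold; edgeR adjusted p = 4.89e-10) and 4.06 ± 0.24 in CtslΔTEC cells (16.7-fold; adjusted p = 1.25e-09). Per length, Id1 rose from at most 2.431 TPM to between 21.56 and 53.15 TPM, a level that overlapped Id2 (22.1 to 45.04 TPM).

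Id3 was already abundant and rose less. It measured 205.8 and 205.6 CPM in stimulated control and 216.3 and 217.5 CPM in stimulated CtslΔTEC mice, above the highest unstimulated value of 164.9 CPM. This was 1.51-fold in control (log2 fold change 0.60 ± 0.14; edgeR adjusted p = 0.00136) and 1.80-fold in CtslΔTEC cells (0.85 ± 0.13; adjusted p = 3.09e-05).

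Id2 measured 18.4 and 24.15 CPM in stimulated control and 34.67 and 20.99 CPM in stimulated CtslΔTEC mice. The rise was 2.50-fold in control (log2 fold change 1.32 ± 0.47; edgeR adjusted p = 0.0231) and 2.46-fold in CtslΔTEC cells (1.30 ± 0.44; adjusted p = 0.0174). It was the least secure of the rises, since the 3 libraries of the first date reached 14.97 to 19.75 CPM without stimulation. Without those 3 libraries the log2 fold change was 1.74 in control and 2.02 in CtslΔTEC cells, but it lost its call in control cells without control mouse 6 (1.08, adjusted p = 0.188) and in CtslΔTEC cells without mouse 6 (0.88, adjusted p = 0.213).

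Tcf3 fell most among the E protein genes. It measured 97.82 and 84.96 CPM in stimulated control and 60.21 and 75.18 CPM in stimulated CtslΔTEC mice, all below the lowest unstimulated value of 143 CPM. The level after stimulation was 0.556 of that before in control (log2 fold change -0.85 ± 0.15; edgeR adjusted p = 0.000162) and 0.416 in CtslΔTEC cells (-1.27 ± 0.15; adjusted p = 2.48e-06).

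Tcf12 fell less, to 127.5 and 155.6 CPM in control and 147.5 and 135.7 CPM in CtslΔTEC mice. The log2 fold changes were -0.39 ± 0.10 (edgeR adjusted p = 0.00427) and -0.37 ± 0.10 (adjusted p = 0.00446). Tcf4 measured 4.5 and 5.475 CPM in control and 4.694 and 3.225 CPM in CtslΔTEC mice, from 34 to 141 counts. Its log2 fold changes were -0.56 ± 0.20 (edgeR adjusted p = 0.0239) and -0.73 ± 0.20 (adjusted p = 0.00517), and the calls were lost without control mouse 5 (-0.47, adjusted p = 0.128) and without CtslΔTEC mouse 7 (-0.49, adjusted p = 0.110), respectively.

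**Figure D2:**
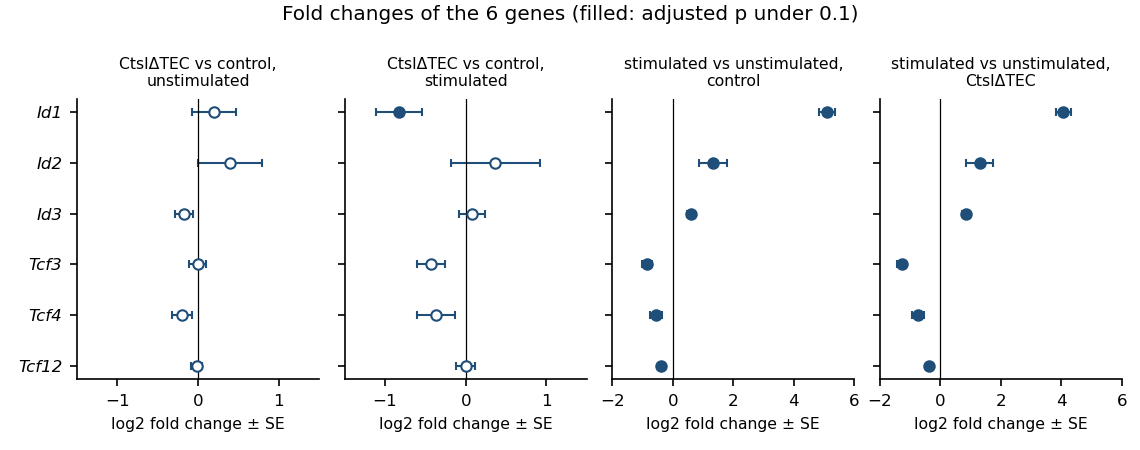
Log2 fold change with its SE (edgeR) for the 6 genes in 4 comparisons: genotype in unstimulated cells, genotype in stimulated cells, and stimulation in control and in CtslΔTEC cells; filled points have an adjusted p under 0.1. All 6 genes are filled in both stimulation comparisons, Id1 alone (-0.82) in the stimulated genotype comparison, and none in the unstimulated one.

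Summed within each family, ID transcripts outnumbered E protein transcripts slightly before stimulation and several-fold after it. The ID genes together made 173.8 to 206.4 TPM in unstimulated CtslΔTEC and 170.5 to 246.6 TPM in unstimulated control libraries, and 374.4 to 379 and 348.9 to 391.4 TPM after stimulation. The E protein genes together made 148.5 to 186.2 and 143.5 to 168.7 TPM before, and 87.07 to 92.97 and 87.97 to 107.1 TPM after stimulation. The ratio of ID to E protein transcripts moved from 1.091 to 1.329 (CtslΔTEC) and 1.089 to 1.514 (control) to 4.027 to 4.353 and 3.655 to 3.967. Both stimulated CtslΔTEC libraries lay above both stimulated control libraries. With 2 mice each, the levels of 49.6% of all genes did not overlap either, and no test of the ratio was made. These are levels of RNA, and protein was not measured.

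The families also changed in makeup. Id3 made up 85.63 to 96.66% of the ID transcripts at rest, and 82.43 to 84.03% (CtslΔTEC) and 78.44 to 80.39% (control) after stimulation. The share of Id1 went from 0.536 to 1.18% at rest to 5.689 to 8.673% (CtslΔTEC) and 11.36 to 15.23% (control). Tcf3 was the larger part of the E protein transcripts at rest, 53.65 to 65.56%, and 41.74 to 54.3% after stimulation. Tcf4 stayed at or below 2.13% in every library, so that nearly all E protein RNA in these cells came from Tcf3 and Tcf12.

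**Figure D3:**
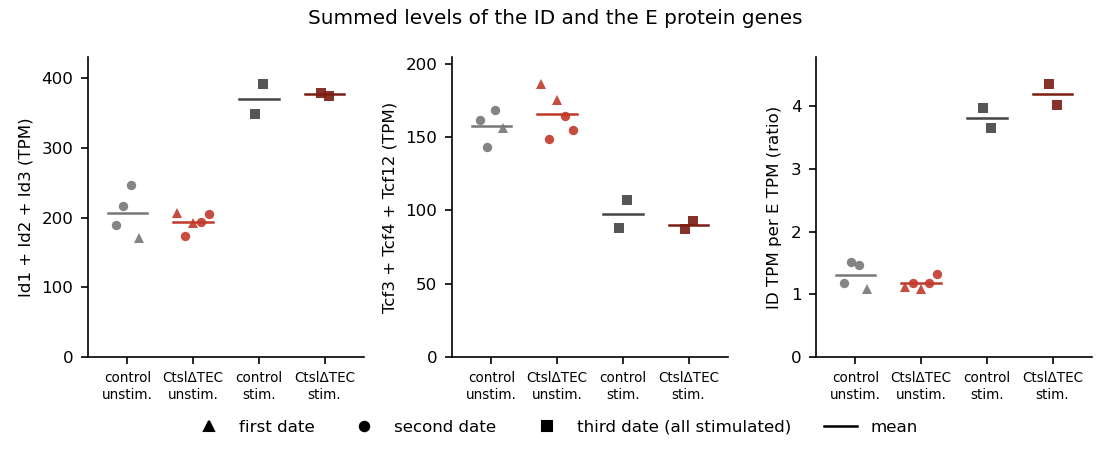
Summed TPM of the ID genes and of the E protein genes, and the ratio of the sums, in each library by group. The ratio was 1.089 to 1.514 in the 9 unstimulated and 3.655 to 4.353 in the 4 stimulated libraries.

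In the third comparison, the genotypes were set against each other after stimulation. Id1 was lower in CtslΔTEC cells, at 12.55 and 18.97 CPM against 31.64 and 24.58 CPM in control cells, without overlap, as for 49.6% of all genes with 2 mice in each group. The log2 fold change was -0.82 ± 0.29, or 0.565 of the control level (edgeR adjusted p = 0.0950). It was the only 1 of 6 genes called, against 13.3% of all genes tested (2.77% higher and 10.6% lower). The call was near the threshold: Id1 was called in 13 of 25 alternatives, in all of which it was lower (log2 fold change -1.17 to -0.56; adjusted p 0.0403 to 0.454). It was lost without CtslΔTEC mouse 6 (-0.56, adjusted p = 0.454) and without control mouse 5, the shallowest library (-0.64, adjusted p = 0.426).

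The other ID genes were not called between stimulated genotypes. Id2 had a log2 fold change of 0.37 ± 0.55 (edgeR adjusted p = 0.761) and Id3 of 0.08 ± 0.16 (adjusted p = 0.842). For Id3 both CtslΔTEC values lay above both control values, a separation as common as that of Id1. Tcf3 was also separated, with both CtslΔTEC values below both control values (log2 fold change -0.43 ± 0.17; edgeR adjusted p = 0.144). It was called in 2 of 25 alternatives, without unstimulated CtslΔTEC mouse 1 (adjusted p = 0.0644) and without the 3 libraries of the first date (adjusted p = 0.0805), the latter chosen after seeing the data. Tcf4 (-0.37 ± 0.24, adjusted p = 0.399) and Tcf12 (-0.00 ± 0.12, adjusted p = 0.997) were not called by edgeR.

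Whether the response to stimulation itself differed between genotypes was tested by the interaction term. No member passed: edgeR called 0 of 6 genes, against 6.01% of all genes (1.13% higher and 4.88% lower), and DESeq2 also called 0. Id1 had the largest term, a log2 difference of -1.02 ± 0.38 (edgeR adjusted p = 0.180), and was the only 1 of 6 with an unadjusted p under 0.05 (0.0168). The terms of Tcf3 (-0.42 ± 0.20, adjusted p = 0.331) and Id3 (0.26, adjusted p = 0.582) did not pass either. The larger rise of Id1 in control cells and the larger fall of Tcf3 in CtslΔTEC cells are therefore not shown to differ between genotypes.

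The deposited values are per transcript, which allowed the makeup of each gene to be compared. Shares of the TPM of a gene were tested between unstimulated genotypes for the 12 transcripts that reached a mean of 10% in any group, with an exact permutation test over the 126 divisions of the 9 mice (two-sided; smallest possible p = 0.00794). That smallest p was reached by 3 of the 12, namely Tcf12-211 and the complementary transcripts Id1-201 and Id1-202, and by 1.44% of the 24855 transcripts of all genes that met the same minimum. With Benjamini-Hochberg adjustment over all 24855, 0.0% of them passed 0.1, and the exact permutation adjusted p of these 3 was 0.551. Their differences are therefore described as values that did not pass the test. Tcf4, at 34 to 261 counts spread over 62 annotated transcripts, was not divided.

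Tcf12-211, which is annotated as a target of nonsense-mediated decay, the degradation of RNAs with a premature stop codon, had higher share values in CtslΔTEC cells. It made up 10.52, 10.6, 12.49, 12.01 and 13.57% in CtslΔTEC mice 1 to 5 and 6.86, 6.206, 9.164 and 9.225% in control mice 1 to 4. No CtslΔTEC value overlapped the controls (11.84 ± 1.30%, SD, n = 5, against 7.864 ± 1.56%, n = 4; exact permutation p = 0.00794, adjusted p = 0.551). The stimulated libraries lay in the same order, 15.9 and 17.84% against 11.82 and 9.689%. The transcript rests on few reads, 89 to 147 counts in CtslΔTEC and 48 to 88 in control libraries, and by share of counts the difference was 0.643 percentage points. Leaving out 1 mouse gave differences of 3.42 to 4.43 percentage points.

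Id1-202 rests on still fewer reads. Its share of Id1 was 13.81, 5.884, 7.491, 5.033 and 7.952% in CtslΔTEC mice, from 1 to 9 counts, and 4.323, 0, 0 and 0% in control mice, from 0 to 2 counts (exact permutation p = 0.00794, adjusted p = 0.551). The control libraries at 0 held 17, 22 and 28 Id1 counts, of which 3 counts would make 17.65, 13.64 and 10.71%, so that the shares seen in most CtslΔTEC libraries would not have been detectable there. In stimulated cells, where Id1 had 139 to 633 counts, Id1-202 made up 13.24 and 11.57% in CtslΔTEC and 9.875 and 14.49% in control libraries, which overlapped.

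The alternative exons of Tcf3 printed above were used in the same proportion in both genotypes to within a few percentage points. Transcripts with the downstream exon made up 67.42 ± 1.86% (SD, n = 5) of those that carried either exon in CtslΔTEC and 66.62 ± 0.78% (n = 4) in control cells (exact permutation p = 0.468), a class added after the data were seen. In stimulated libraries the shares were 56.18 and 71.14% in CtslΔTEC and 63.56 and 66.1% in control cells, a spread as wide as any difference. Tcf3-212, a processed transcript without an annotated protein, had a share of 11.89% in CtslΔTEC and 9.289% in control cells (exact permutation p = 0.0476, adjusted p = 0.679).

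Shares of Id3 and Id2 transcripts in stimulated libraries are described here as values without a test, as stimulation cannot be told apart from date. Id3-203, a transcript that retains an intron, made up 14.9 to 20.76% of Id3 in the 9 unstimulated libraries and 26.21 to 29.75% in the 4 stimulated ones. At rest its share was alike to within the spread between mice (18.04 ± 2.58% against 17.06 ± 2.27%; exact permutation p = 0.571, adjusted p = 0.950). Id2-203 made up 29.2 and 30.16% of Id2 in stimulated CtslΔTEC and 19.66 and 20.65% in stimulated control libraries, and 4.611 to 23.9% at rest.

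**Figure D4:**
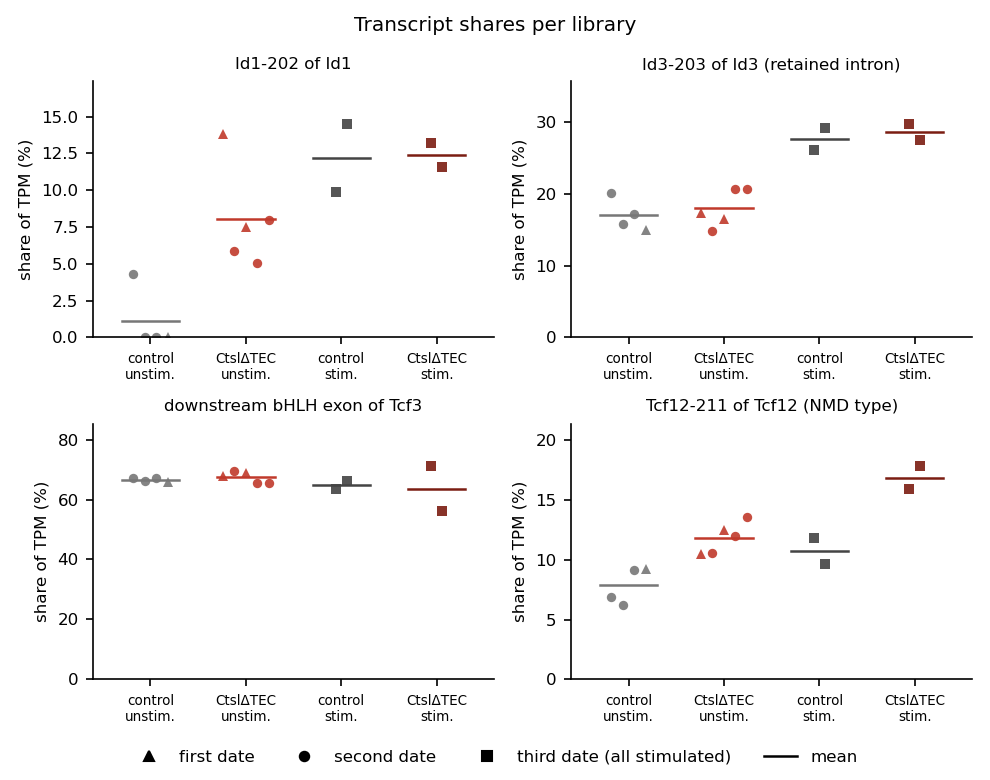
Share of the gene's TPM, in percent, of Id1-202, Id3-203 and Tcf12-211, and of Tcf3 transcripts with the downstream exon among those with either exon, in each library by group. Tcf12-211 lay at 10.52 to 13.57% in unstimulated CtslΔTEC and 6.206 to 9.225% in control libraries, and Id3-203 was higher in all 4 stimulated libraries.

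E proteins act with other helix-loop-helix factors and with LMO and ETO family cofactors. Of 13 such genes, 5 had enough counts for the test in unstimulated cells, and edgeR called 0 of them between genotypes, with 0 of 6 tested after stimulation, where 14.8% and 13.3% of all genes were called. Tal1, whose product pairs with E proteins in blood progenitors and in T cell leukemia, was listed at 0 counts in all 13 libraries, as was Id4. Among the 6 cofactor genes tested for stimulation, Lmo4, an adaptor of LIM-domain complexes, fell in both genotypes (log2 fold change -2.15 in control and -2.48 in CtslΔTEC cells; edgeR adjusted p = 2.23e-08 and 3.56e-09), and so did Ldb1, the factor that joins such complexes (-1.19 and -1.37; adjusted p = 6.90e-07 and 9.75e-08). Cbfa2t3 (17 to 39 counts at rest, 0 to 4 after stimulation) was also called lower in both genotypes, Lmo2 (12 to 28 and 0 to 6 counts) in control cells, and Runx1t1 (2 to 10 counts throughout) higher in both, all on too few counts for a fold change. In all, 1 of 6 tested genes was higher and 4 lower in control cells (median log2 fold change -1.67, against 0.01 for all genes), and 1 higher and 3 lower in CtslΔTEC cells (-1.13, against -0.06), where 67.7% and 71.2% of all genes were called.

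Genes known as targets of E proteins in lymphocytes moved in both directions between unstimulated genotypes, although none of the 6 E and ID genes was called. Of 19 listed, 16 were tested, 5 were higher and 3 lower in CtslΔTEC cells (6.42% and 8.36% of all genes), and the median of the 16 log2 fold changes was 0.42 against 0.01 for all genes. This list, like the others, was chosen with earlier results of these data known, and no list was tested as a set. Higher were Gfi1, a repressor of transcription (29.97 ± 1.49 CPM against 10.65 ± 1.145 CPM; log2 fold change 1.49 ± 0.09, edgeR adjusted p = 1.20e-06), and Socs3, an inhibitor of cytokine signals (62.93 ± 10.0 against 17.16 ± 1.78 CPM; 1.88 ± 0.12, adjusted p = 4.03e-06). Dntt, the terminal transferase of receptor rearrangement, was at 74.46 ± 10.2 against 20.82 ± 5.22 CPM (1.84 ± 0.16, adjusted p = 3.49e-05). Ccr9, a thymus and gut homing receptor, had a log2 fold change of 0.96 ± 0.12 (adjusted p = 0.000301). The fifth was Rag1 (1.81 ± 0.48, adjusted p = 0.0332), the gene disrupted in all these mice, which is also a DP marker.

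The 3 lower genes are known for their roles in mature or resting T cells. Il7r, the receptor chain for interleukin-7, was at 42.66 ± 11.7 CPM in CtslΔTEC and 90.43 ± 15.2 CPM in control cells (log2 fold change -1.08 ± 0.17, edgeR adjusted p = 0.00194). Foxo1, a regulator of quiescence, had a log2 fold change of -0.46 ± 0.07 (adjusted p = 0.00167) and Ccr7, a homing receptor of mature cells, of -0.37 ± 0.07 (adjusted p = 0.00739). The list shares Rag1, Rag2, Ptcra and Dntt with the DP marker list, whose summed level was 284 to 366 against 96.3 to 128 CPM, and Cd4, Il7r and Ccr7 with the mature CD4SP list, at 5340 to 5720 against 6140 to 6640 CPM. The summed regulatory T cell list (19.9 to 24.2 against 9.07 to 15.7 CPM) also separated the genotypes, but its members disagreed. Il2ra (9.192 ± 2.45 against 2.293 ± 0.246 CPM) and Ctla4 (9.091 ± 2.77 against 2.843 ± 1.91 CPM), both also known from activated T cells, had higher means in CtslΔTEC cells, Ikzf2 a lower one (3.535 ± 0.475 against 5.84 ± 0.892 CPM), and Foxp3, the defining factor and also a listed target, was not called (0.9056 ± 0.174 against 0.8112 ± 0.215 CPM; edgeR adjusted p = 0.725). The sum of the NKT and γδ T cell list (193 to 261 against 146 to 179 CPM) was nearly all Trdc (229.6 ± 26.1 against 148.2 ± 14.5 CPM), while Tcrg-C1 (0.5284 ± 0.126 against 1.087 ± 0.239 CPM) and Sox13 (1.639 ± 0.338 against 5.818 ± 1.29 CPM) had lower means in CtslΔTEC cells and Zbtb16 had 0 to 1 counts per library. Rag1, which these mice lack, is needed for γδ T cells to develop, and the part of such cells in the Trdc level was not tested. Thymic epithelial markers summed to 3.39 to 5.16 against 2.53 to 3.16 CPM, of which Epcam was 2.583 against 1.517 CPM and Psmb11 1.324 against 1.316 CPM. The part of other or less mature cells in these differences was not tested. Rag1, which is disrupted in all these mice, still gave 155 to 713 counts in CtslΔTEC and 81 to 177 in control libraries, so that its RNA says nothing about the protein.

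After stimulation, 3 of 18 tested targets were higher and 3 lower in CtslΔTEC cells (2.77% and 10.6% of all genes), and the median log2 fold change was -0.15, against -0.05 for all genes. Socs3 (log2 fold change 1.76 ± 0.32, edgeR adjusted p = 0.00359), Ccr9 (0.96 ± 0.22, adjusted p = 0.0137) and Gfi1 (0.42 ± 0.15, adjusted p = 0.0982) were higher. Il7r (-1.72 ± 0.30, adjusted p = 0.00296), Foxo1 (-0.61 ± 0.12, adjusted p = 0.00470) and Ccr7 (-1.01 ± 0.24, adjusted p = 0.0150) were lower. All 6 had been called in the same direction in unstimulated cells. Marker sums also separated the stimulated genotypes: DP markers lay at 60.4 to 60.6 CPM in CtslΔTEC against 25.7 to 26.7 CPM in control libraries, NK markers at 0.632 to 1.26 against 2.14 to 2.91 CPM and mature CD4SP markers at 4910 to 5230 against 4190 to 4640 CPM. Dendritic cell markers summed higher in CtslΔTEC libraries (49.9 to 55.7 against 32 to 45.6 CPM). Most of that sum was Irf8 (48.92 against 25.83 CPM), which lay at 0.8445 to 1.367 CPM at rest. Itgax went the other way (0.7632 against 10.82 CPM). Thymic epithelial markers also summed higher (13.3 to 15.1 against 10.9 to 12.9 CPM), mostly through Epcam (11.74 against 10.15 CPM), with Krt5 and Krt8 at 0 counts. B cell markers (13.8 to 15.9 against 18.6 to 18.8 CPM, mostly Cd74) and endothelial and mesenchymal markers (43.4 to 46.2 against 56.7 to 71.5 CPM, mostly Pecam1) summed lower. The regulatory T cell sum (793 to 832 against 704 to 759 CPM) was nearly all Il2ra, a gene induced by T cell activation (783.8 against 701 CPM), with Ikzf2 lower (11.26 against 17.44 CPM) and Foxp3 at 0 to 2 counts. The NKT and γδ T cell sum (187 to 189 against 167 to 179 CPM) was again nearly all Trdc. With 2 libraries a group, the levels of 49.6% of all genes did not overlap. The part of other cells in these differences was not tested.

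**Figure D5:**
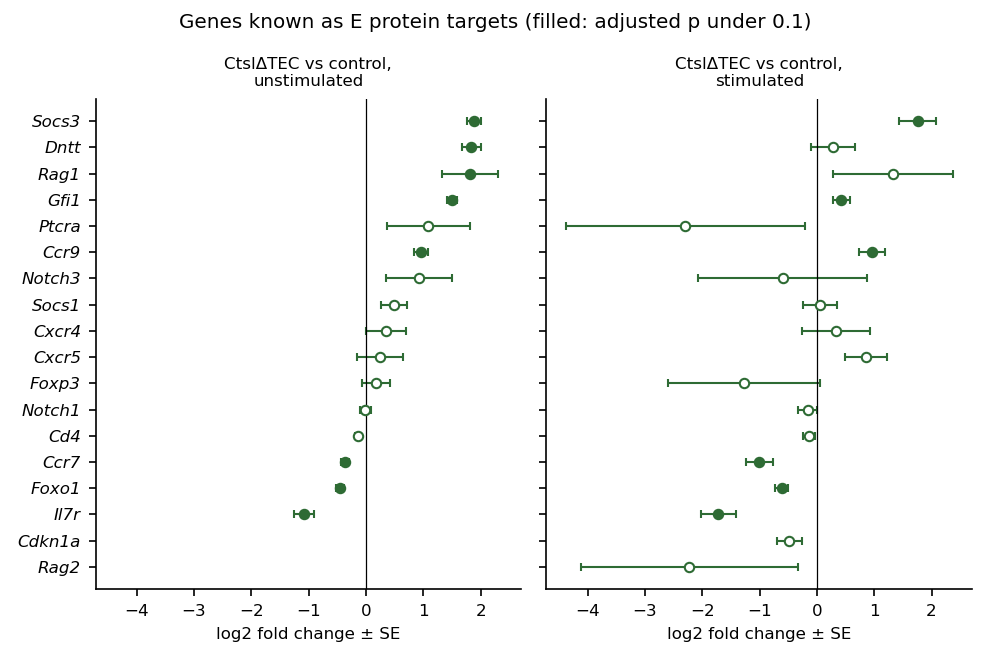
Log2 fold change (CtslΔTEC over control) with its SE (edgeR) for the listed E protein target genes that were tested, 16 in unstimulated and 18 in stimulated cells, on a shared axis; filled points have an adjusted p under 0.1. Socs3, Gfi1 and Ccr9 are to the right and Il7r, Foxo1 and Ccr7 to the left of 0 in both panels.

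Stimulation changed most of the targets, as it did most of all genes (67.7% in control and 71.2% in CtslΔTEC cells): 5 rose and 10 fell of 18 in control cells (median log2 fold change -1.05, against 0.01 for all genes), and 5 rose and 13 fell in CtslΔTEC cells (-1.79, against -0.06). Gfi1 rose from 10.65 to 445.6 CPM in control (log2 fold change 5.39, edgeR adjusted p = 6.63e-13) and from 29.97 to 598.2 CPM in CtslΔTEC cells (4.32, adjusted p = 6.90e-13). Cdkn1a, the cell cycle inhibitor that E2A activates, rose from 2 to 8 counts per library at rest to 340 to 1103 counts in stimulated libraries. Socs1 (log2 fold change 3.74 and 3.31) and Cxcr5 (4.66 and 5.28) rose in control and CtslΔTEC cells. Socs3 fell by 3.74 and 3.86 on the log2 scale, Dntt by 2.63 and 4.18, Ccr7 by 2.20 and 2.83 and Foxo1 by 1.60 and 1.75, with every edgeR adjusted p at or below 3.01e-06. The response of 2 of the 18 targets differed between genotypes by the interaction term, which called 6.01% of all genes. On the log2 scale Gfi1 rose less (log2 difference -1.07 ± 0.18, edgeR adjusted p = 0.00769) and Dntt fell further (-1.55 ± 0.42, adjusted p = 0.0600) in CtslΔTEC cells. Both genes were higher in CtslΔTEC cells at rest, and Dntt ended at 4.212 CPM in CtslΔTEC against 3.75 CPM in control cells.

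Of the genes upstream of Id3, 10 make up the ERK to EGR branch, in which ERK kinases activate ELK and SRF factors that switch on the EGR genes. Between unstimulated genotypes, 0 of 10 were higher and 3 lower in CtslΔTEC cells (median log2 fold change -0.15, against 0.01 for all genes, of which 14.8% were called): Map2k1, which encodes the ERK kinase MEK1 (76.38 ± 3.34 against 100.9 ± 14.4 CPM; log2 fold change -0.40 ± 0.09, edgeR adjusted p = 0.0116), Srf (-0.45 ± 0.11, adjusted p = 0.0189) and Mapk3, which encodes ERK1 (-0.27 ± 0.08, adjusted p = 0.0429). After stimulation Map2k1 (-0.49 ± 0.13, adjusted p = 0.0296) and Mapk3 (-0.44 ± 0.13, adjusted p = 0.0457) were again lower, 2 of 10 where 13.3% of all genes were called. The EGR genes were not called between genotypes in either state. With stimulation Egr2 (log2 fold change 3.11 in control and 3.21 in CtslΔTEC cells), Egr3 (3.49 and 3.44) and Egr1 (1.76 and 2.48) rose and Map2k1 (-1.44 and -1.53) and Mapk3 (-1.37 and -1.54) fell, each with an edgeR adjusted p of at most 0.000448. In control cells 4 of 10 rose and 3 fell (median log2 fold change 0.18, against 0.01 for all genes), and in CtslΔTEC cells 5 rose and 3 fell (0.13, against -0.06), shares close to the 67.7% and 71.2% of all genes called.

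A second branch leads from BMP and TGF-β receptors through SMAD proteins to the ID genes. Of 14 tested genes, 0 were higher and 3 lower in unstimulated CtslΔTEC cells (median log2 fold change -0.17, against 0.01 for all genes, of which 14.8% were called), namely the activin receptor Acvr2a (3.774 ± 0.291 against 6.65 ± 1.29 CPM; log2 fold change -0.82 ± 0.14, edgeR adjusted p = 0.00325), Smad4, the shared partner of the signaling SMADs (-0.21 ± 0.07, adjusted p = 0.0797), and the inhibitor Smad7 (-0.40 ± 0.13, adjusted p = 0.0821). After stimulation 0 of the 14 were higher and 2 lower, near the 13.3% of all genes called in that comparison, namely Tgfbr2, a TGF-β receptor chain (-0.68 ± 0.16, edgeR adjusted p = 0.0170), and Smad3 (-0.55 ± 0.13, adjusted p = 0.0172). With stimulation 3 rose and 8 fell in control (median log2 fold change -0.63, against 0.01 for all genes) and 2 rose and 7 fell in CtslΔTEC cells (-0.41, against -0.06), near the 67.7% and 71.2% of all genes called. The falls included Ski, a corepressor of SMADs (log2 fold change -2.17 and -2.35), Tgfbr2 (-1.54 and -2.04), Smad7 (-1.85 and -1.91) and Smad4 (-1.17 and -0.79), each with an edgeR adjusted p of at most 1.20e-06. Acvr2a (0.53 and 0.88) and Smad2 (0.16 and 0.39) rose in both genotypes, and Smad3 (0.37, adjusted p = 0.0107) in control cells.

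Of 11 genes for coactivators of E proteins and for the turnover of either family, 1 was called between genotypes in each state, a share below the 14.8% and 13.3% of all genes. It was Fzr1, an activator of the anaphase-promoting complex, which was lower in CtslΔTEC cells at rest (log2 fold change -0.26 ± 0.07, edgeR adjusted p = 0.0409) and after stimulation (-0.34 ± 0.11, adjusted p = 0.0745). In stimulated cells the acetyltransferase genes Kat2b (-2.33 in control and -2.67 in CtslΔTEC cells), Ep300 (-1.37 and -1.19) and Crebbp (-0.87 and -1.03) were lower, as was the ubiquitin ligase gene Smurf2 (-1.51 and -1.59). Asb2, a ubiquitin ligase subunit tied to E2A turnover (4.56 and 4.81, from 6 to 41 counts at rest), was higher. So were Stub1 (0.70 and 0.68), Usp1, a deubiquitinase known to stabilize ID proteins (0.46 and 0.75), and Fzr1 (0.31 and 0.23). In control cells 4 of 11 rose and 5 fell (median log2 fold change -0.16, against 0.01 for all genes), and in CtslΔTEC cells 4 rose and 6 fell (-0.52, against -0.06), where 67.7% and 71.2% of all genes were called.

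Genes with the most similar profile were sought for each member over the 13 libraries, among 10090 genes, by the root mean square (RMS) difference of centered log2 CPM values. Because this difference grows with how much a gene varies, it is also given as a part of the SD of the member over the libraries. Relative to its own SD, the profile of Tcf3 was met most closely, by Relt (RMS difference 0.08, or 0.14 of the SD), Rnf166 (0.09) and Pnkd (0.09). The profile of Tcf12 was met by Cdk13 (0.04, or 0.215 of the SD), Setd5 (0.05) and Usp47 (0.06). Relt, for example, lay at 49.7 to 71.5 CPM at rest and 24.1 to 31.6 CPM after stimulation. Id3 was nearest to Il4ra (0.11, or 0.276 of the SD), Zdhhc18 (0.12) and Zdhhc5 (0.13), and Tcf4 to Dusp11, Tctn3 and Rps6ka2 (0.15 each, or 0.382 to 0.395 of the SD). Id1, which varied most, had differences of 0.37 to Nfkb2 (0.17 of its SD), 0.38 to Marcksl1 and 0.41 to Map2k3. Nfkb2 rose from 28.9 to 43.4 CPM at rest to 701 to 845 CPM but was at least as high in stimulated CtslΔTEC (763 and 845 CPM) as in control cells (701 and 751 CPM), unlike Id1. The genes nearest to Id2 were Ier5 (0.30, or 0.331 of the SD), Cd24a (0.36) and Ier2 (0.37). Ier5 and Ier2 are immediate-early genes that, like Id2, were high at the first date (198 to 285 and 168 to 277 CPM) as well as after stimulation (289 to 330 and 342 to 468 CPM), against 87.3 to 111 and 85.2 to 121 CPM at the second date.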

How the data were processed

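The authors quantified RNA-seq reads with kallisto (0.48 in the submitters' processing notes) against Ensembl mouse transcripts and deposited estimated counts and transcripts-per-million (TPM) for each transcript in each of 13 libraries. The labels name polyA RNA and the study's methods name ribosomal RNA depletion. Estimated counts were summed by gene and rounded (117497 transcripts, of which 1100, with at most 0.461% of the counts, had no gene name), and TPM were summed by gene. Positions are from GENCODE M21 (GRCm38), an older annotation than the study's. Counts were tested with edgeR 4.0.16 (R 4.3.3, TMM factors, filterByExpr, glmQLFit, glmQLFTest), with Benjamini-Hochberg adjusted p under 0.1, as in the study. Unstimulated genotypes were fitted on 9 libraries and the other comparisons on all 13 with 4 groups. CPM are on the TMM scale. An SE is the size of the log2 value over the root of its F statistic, and 95% intervals assume normality. Tests were checked on simulated data. A replicate is 1 mouse. Alternatives were DESeq2 1.42.0, other scaling factors, no or a stricter filter, thinning, counts rescaled from TPM, date, Y-linked and replicate terms, and each mouse left out. The members and lists were chosen with earlier results of these data known. A gene of the lists is not reported here and was left out of them. From each list, up to 4 called genes per direction and comparison with the smallest p are named, and for each member the 3 nearest profiles among genes with a mean log2 CPM of at least 1. Mouse numbers are those of the labels, and the numbers in the names of the tables of the stimulated mice and of unstimulated CtslΔTEC mouse 2 differ from them. Columns of samples that could not be mapped numbered 0.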

Additional observations from a re-analysis of the deposited data

Results flagged for a closer look

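Among the shares of single transcripts, 1 sample stood far from the rest of its group. In unstimulated control mouse 1, Id1-201 made up 95.68% of Id1 and Id1-202 made up 4.323%, whereas the other 3 control mice had 100% and 0%. The 2 values are complements of each other and rest on at most 2 counts. They were 2 of 46 groups of values examined, and chance flags about 1 in 20 groups.

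The response of 2 listed E protein targets to stimulation differed between genotypes by the interaction term, which called 6.01% of all genes. For Gfi1 the log2 difference was -1.07 ± 0.18 (edgeR adjusted p = 0.00769): it was higher in CtslΔTEC cells at rest, at 29.97 against 10.65 CPM, and closer to control after stimulation, at 598.2 against 445.6 CPM. For Dntt it was -1.55 ± 0.42 (edgeR adjusted p = 0.0600), with 74.46 against 20.82 CPM at rest and 4.212 against 3.75 CPM after stimulation, where it rested on 37 to 67 counts per library.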

How the results depend on the processing

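For the 6 genes, every alternative kept the direction of the called values. The unstimulated genotype comparison called 0 members under every alternative, while the genes called went from 1943 to 430 with a Y-linked term and to 1051 with the replicate block. The mouse numbers 1 to 4 do not pair the samples (correlation of deviations between same-numbered mice -0.155, 0.347, -0.097 and -0.138), and only mouse 2 correlated best with its own number. For the comparisons with stimulated cells no block was fitted, because the stimulated groups share only the number 6, and the transcript shares were not permuted within numbers. After stimulation, 1 member (Id1) was called, and 0 with RLE factors, upper-quartile factors, counts rescaled from TPM, the Y-linked term or an adjusted p under 0.05, 2 without the 3 libraries of the first date (added after seeing the data), and 0 to 2 when 1 mouse was left out. The genes called there went from 1898 to 1127 with the stimulated libraries alone, and to 945 to 2235 with 1 mouse left out. Interaction calls went from 856 to 436 with counts rescaled from TPM, 471 at an adjusted p under 0.05, and 334 to 1227 with 1 mouse left out. The transcripts called, with adjustment over the 12 alone, went from 3 to 0 with adjustment over the transcripts of all genes (added after seeing the data), to 0 within the second date, and to 0 to 3 with 1 mouse left out, where fewer divisions of the mice raise the smallest possible p. Id1 could not be fitted among unstimulated libraries thinned to equal depth. With library totals alone, the median log2 fold change of all genes was -0.21 for stimulation in CtslΔTEC cells and -0.08 in control cells. Depth limits Id1 at rest (17 to 52 counts) and Tcf4 after stimulation (34 to 141 counts).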
